A study of Mus musculus with 9 samples.

Results

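Hba-a1, Hba-a2, Hbb-bs, Hbb-bt, Alas2 and Slc4a1 are 6 transcripts of red blood cells, and they were measured here in whole mouse aorta. They are 6 of the 37668 genes of the deposited table and were found there by gene symbol. The set was chosen by measured values, since it was proposed with the group levels of these same genes in view, so the differences between groups are described below and none was tested. The levels of all 6 were highest in aortas with Cre under the Cdh5 promoter, lower in aortas with Cre under the Sm22 promoter and lowest in aortas without Cre.

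RNA of 9 aortas was sequenced, all from male mice of strain background 129T2SvEmsJ:C57Blk/6J at 90 days of age. Every mouse, controls included, carried a floxed allele of AT1ar, which encodes a receptor for angiotensin II. The Sm22Cre group (3 mice) also carried Sm22-Cre, whose promoter comes from the smooth muscle gene Tagln. The Cdh5Cre group (3 mice) carried Cdh5-Cre, whose promoter comes from the gene for vascular endothelial cadherin. The floxed group (3 mice) carried no Cre. The labels do not say whether either Cre is inducible, and the Cdh5 promoter is also active in the embryonic endothelium from which blood cells arise. The series title names Marfan syndrome, but the labels give no fibrillin-1 allele. The question the design states is how loss of the receptor from endothelial or from smooth muscle cells relates to the aortic transcriptome. Values are in FPKM, fragments per kilobase of transcript scaled to the number of mapped fragments, and the table holds 1 value for each whole group. The spread between mice and the depth of the libraries are therefore unknown, no difference could be set against replicate error, and the share of 1 mouse in a group value cannot be told apart from that of the other mice.

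Haemoglobin is a tetramer of paired alpha and beta globin chains, each of which holds a haem group that binds oxygen. In the adult mouse the alpha chains come from Hba-a1 and Hba-a2 and the beta chains, on the C57BL/6 haplotype, from Hbb-bs and Hbb-bt. Alas2 encodes the erythroid form of 5-aminolevulinate synthase, the first enzyme of haem synthesis. Slc4a1 encodes band 3, the chloride and bicarbonate exchanger that anchors the red cell membrane to its skeleton. Mature red cells have no nucleus, and young ones, the reticulocytes, still hold globin messenger RNA. Alpha globin is also made in endothelial cells of small arteries, where it affects the passage of nitric oxide to smooth muscle.

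The sequences of the 4 globin genes are shown first because the copies are nearly identical, which bears on how fragments can be divided between them. The coding sequences of Hba-a1 and Hba-a2 are 429 bases each in GENCODE M21 and differ at 1 base, C381T, counted from the A of the start codon, with Hba-a1 first. Those of Hbb-bs and Hbb-bt are 444 bases each and also differ at 1 base, C417T, with Hbb-bs first. The stretches around these bases, 60 coding bases each read on the gene's own strand, carry the differing base in capitals.
Hba-a1: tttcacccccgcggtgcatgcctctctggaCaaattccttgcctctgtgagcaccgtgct
Hba-a2: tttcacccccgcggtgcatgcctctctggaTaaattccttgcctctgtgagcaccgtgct
Hbb-bs: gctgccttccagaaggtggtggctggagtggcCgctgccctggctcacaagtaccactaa
Hbb-bt: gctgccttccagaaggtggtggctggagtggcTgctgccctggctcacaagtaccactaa

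Reads of 75 bases were collected. Of all 75-base windows of the Hba-a2 transcript, 81.0% occur unchanged in Hba-a1, and 62.2% of those of Hba-a1 occur in Hba-a2. For the beta genes, 56.6% of the windows of Hbb-bt occur in Hbb-bs and 64.3% of those of Hbb-bs occur in Hbb-bt. The split of a chain's signal between its copies thus rests on the remaining windows and on the authors' estimation. Sums over both copies depend on it less, through the copies' different lengths. No 75-base window is shared between Hba-a1 and Hbb-bs. Mice of 129 background carry another beta globin haplotype, with the genes Hbb-b1 and Hbb-b2, neither of which was found among the symbols of the table. How fragments of that haplotype were assigned is not stated.

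The stretch of 150 bases before the annotated start is shown for 4 of the genes because the members' levels had the same order over the groups. These are RefSeq sequences on GRCm38.p6, with capitals for matches on either strand to 4 motifs: TATAA (the TATA box core), CCAAT (a site of several factors), CACCC (a core of sites for Klf factors) and GATA (a core of sites for Gata1). Adjoining or overlapping matches form 1 run of capitals. The entry of Hba-a2 holds the same sequence as that of Hba-a1 over 147 of the 150 bases, shifted by 3.
Hba-a1: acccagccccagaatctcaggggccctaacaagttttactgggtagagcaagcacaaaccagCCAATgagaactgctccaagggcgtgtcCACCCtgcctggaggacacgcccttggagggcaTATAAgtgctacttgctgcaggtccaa
Hbb-bs: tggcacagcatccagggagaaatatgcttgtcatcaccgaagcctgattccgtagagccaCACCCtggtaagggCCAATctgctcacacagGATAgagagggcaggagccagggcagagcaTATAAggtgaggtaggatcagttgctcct
Hbb-bt: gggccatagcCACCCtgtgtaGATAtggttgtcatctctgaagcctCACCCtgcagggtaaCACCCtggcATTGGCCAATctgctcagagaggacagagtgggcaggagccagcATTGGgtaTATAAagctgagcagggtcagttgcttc
Alas2: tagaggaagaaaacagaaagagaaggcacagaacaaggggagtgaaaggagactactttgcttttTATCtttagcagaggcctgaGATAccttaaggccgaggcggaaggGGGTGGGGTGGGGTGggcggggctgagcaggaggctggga

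They lie at chr11:32283522-32283671 on the plus strand (Hba-a1), chr7:103827929-103828078 on the minus strand (Hbb-bs), chr7:103813924-103814073 on the minus strand (Hbb-bt) and chrX:150547267-150547416 on the plus strand (Alas2). TATAA was found in the 4 globin promoters and not in that of Alas2, and 14.2% of 32851 RefSeq promoter windows of the same length hold it. CCAAT was in the same 4, against 24.5% of all windows. CACCC was in all 5 member windows (the 4 shown and Hba-a2), against 37.4%. GATA was in Hbb-bs, Hbb-bt and Alas2, against 35.7%. The first 3 motifs occurred together in the 4 globin windows and in 360 of all windows (1.10%). Counted from the start, the matches in Hba-a1 began at -88 for CCAAT, at -60 for CACCC and at -27 for TATAA. In Alas2 all 3 CACCC matches were on the opposite strand, at -40, -35 and -30. These are matches of letters and say nothing of binding.

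Beta and alpha globin were among the most abundant transcripts of the aorta. Hba-a1 (ENSMUSG00000069919, mm9 chromosome 11, 32183511 to 32184465) stood at 2586 FPKM in Sm22Cre, 7867 in Cdh5Cre and 1201 in floxed. Among genes without the authors' status HIDATA, which Acta2 carries, it ranked 16 by FPKM in Sm22Cre, 3 in Cdh5Cre and 32 in floxed. Its level was thus highest in Cdh5Cre and lowest in floxed, with Sm22Cre nearer to floxed. Hba-a2 (ENSMUSG00000069917, chromosome 11, 32196489 to 32197301) stood at 2110 FPKM in Sm22Cre, 6703 in Cdh5Cre and 971.7 in floxed. Hbb-bs (ENSMUSG00000052305, chromosome 7, 110975048 to 110976610) stood at 2809 FPKM in Sm22Cre, 7038 in Cdh5Cre and 1188 in floxed. Both genes kept the order of Hba-a1 over the groups. Hbb-bt (ENSMUSG00000073940, chromosome 7, 110961038 to 110962510) was the lowest of the 4, at 1496 FPKM in Sm22Cre, 3777 in Cdh5Cre and 646.7 in floxed. Each of these loci is listed for 1 gene alone. The authors' status, which says whether their test of a pair could be carried out, was OK in every pair for Hbb-bt and FAIL in every pair for Hba-a1, Hba-a2 and Hbb-bs. In the pair of Cdh5Cre and floxed, 27.7% of the genes past the expression filter carried FAIL.

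The 2 other members were far less abundant. Alas2 (ENSMUSG00000025270) stood at 27.1 FPKM in Sm22Cre, 67.1 in Cdh5Cre and 12.7 in floxed. Its listed locus, chromosome X from 146954062 to 147078421, also covers Apex2 and Pfkfb1, and FAIL was its status throughout. Apex2, a DNA repair gene, was at 3.45, 3.94 and 2.96 FPKM in Sm22Cre, Cdh5Cre and floxed, and Pfkfb1, a gene of sugar metabolism, at 1.84, 2.28 and 1.62, so these neighbours were low and differed little between the groups. Slc4a1 (ENSMUSG00000006574, chromosome 11, 102210138 to 102227517) was below 1 FPKM throughout, at 0.41 in Sm22Cre, 0.85 in Cdh5Cre and 0.13 in floxed, with status OK. It fell under the filter of 1 FPKM in at least 1 group that 14225 genes passed, whereas the other 5 members passed. Its order over the groups was that of the globins, and the number of fragments behind these low values is unknown.

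**Figure D1:**
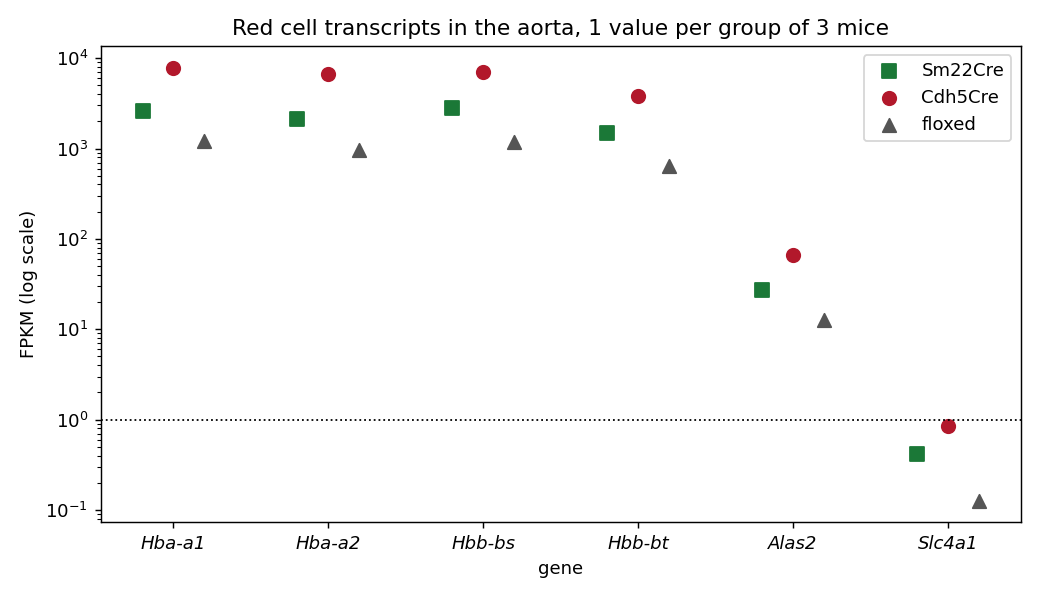
FPKM of the 6 red cell transcripts on a log scale, 1 point per group (green squares Sm22Cre, red circles Cdh5Cre, grey triangles floxed); the dotted line marks 1 FPKM. Each gene is highest in Cdh5Cre and lowest in floxed, and Slc4a1 lies below 1 FPKM in every group.

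In Cdh5Cre aortas the globin genes stood 5.84-fold to 6.90-fold above floxed aortas. The sum of the 4 was 25385 FPKM in Cdh5Cre and 4007 in floxed, a ratio of 6.33, while the sum of all other genes had a ratio of 1.18. As shares of the FPKM sum of each group, the globins took 4.18% in Cdh5Cre and 0.81% in floxed, a ratio of 5.17. The group sums count Acta2 (status HIDATA) at its listed value of 0. Alas2 was 5.30-fold and Slc4a1 6.65-fold higher as plain ratios of FPKM. On the log2(FPKM + 1) scale, which understates differences of low genes, the ratios were 2.71 for Hba-a1, 2.78 for Hba-a2, 2.57 for Hbb-bs, 2.54 for Hbb-bt, 2.32 for Alas2 and 0.71 for Slc4a1. The 5 members that passed the filter were therefore higher by 2-fold or more on that scale, and Slc4a1 was not. Of all 14225 genes, 169 (1.19%) were higher by that much. The members' ratios chose them, so nothing is read from this count. The median over the 5 was 2.57 and that over all genes 0.02.

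Alpha globin had larger ratios than beta globin in this comparison. Log2 ratios of Cdh5Cre over floxed followed transcript length and GC content across all genes, which together accounted for 44.6% of the variance over 12317 protein-coding genes. The alpha transcripts have 57.2% and 56.9% GC, the beta transcripts 51.3% and 50.8%, and all 4 are short, at 554 to 703 bases. With a linear trend on length and GC removed, the log2 ratios were 2.10 for Hba-a1, 2.12 for Hba-a2, 2.07 for Hbb-bs, 2.10 for Hbb-bt and 2.12 for Alas2. These 5 values lay within 0.05 of each other, and each stayed above 2-fold. Slc4a1, with a transcript of 4545 bases, was at 0.71 with and without the trend.

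In Sm22Cre aortas the members were also above floxed, by smaller ratios. The globin sum was 9001 FPKM in Sm22Cre and 4007 in floxed, a ratio of 2.25, and the sum of all other genes had a ratio of 1.00. The globin share was 1.80% in Sm22Cre and 0.81% in floxed. Plain ratios lay between 2.15 (Hba-a1) and 2.37 (Hbb-bs) among the globins, with 2.15 for Alas2 and 3.26 for Slc4a1. On the log2(FPKM + 1) scale they were 1.11 for Hba-a1, 1.12 for Hba-a2, 1.24 for Hbb-bs, 1.21 for Hbb-bt, 1.04 for Alas2 and 0.33 for Slc4a1. Again 5 members were higher by 2-fold or more, as were 43 of all genes (0.302%), and again the choice of members used these values. Alas2 and the alpha genes lay just past 2-fold. Here beta globin had the larger ratios, and the trend on length and GC accounted for 3.49% of the variance over all genes. With it removed the alpha genes were at 1.05 each, the beta genes at 1.17 and 1.14 and Alas2 at 1.03. Cdh5Cre and Sm22Cre share the floxed value, so the direction of both comparisons rests in part on 1 group value.

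Set against Cdh5Cre directly, Sm22Cre aortas had less of every member. The globin sum was 9001 FPKM in Sm22Cre and 25385 in Cdh5Cre, so that the Cdh5Cre sum was 2.82 times as large. Hba-a1 and Hba-a2 were 67.1% and 68.5% lower in Sm22Cre, Hbb-bs and Hbb-bt 60.1% and 60.4%, Alas2 59.5% and Slc4a1 50.9%. The log2(FPKM + 1) ratios were -1.60 for Hba-a1, -1.67 for Hba-a2, -1.32 for Hbb-bs, -1.34 for Hbb-bt and -1.27 for Alas2. All 5 were lower by 2-fold or more, as were 175 of all genes (1.23%). With the trend removed 3 of them were, since Hbb-bs (-0.90) and Hbb-bt (-0.95) lay just short of 2-fold. Slc4a1 was at -0.38.

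**Figure D2:**
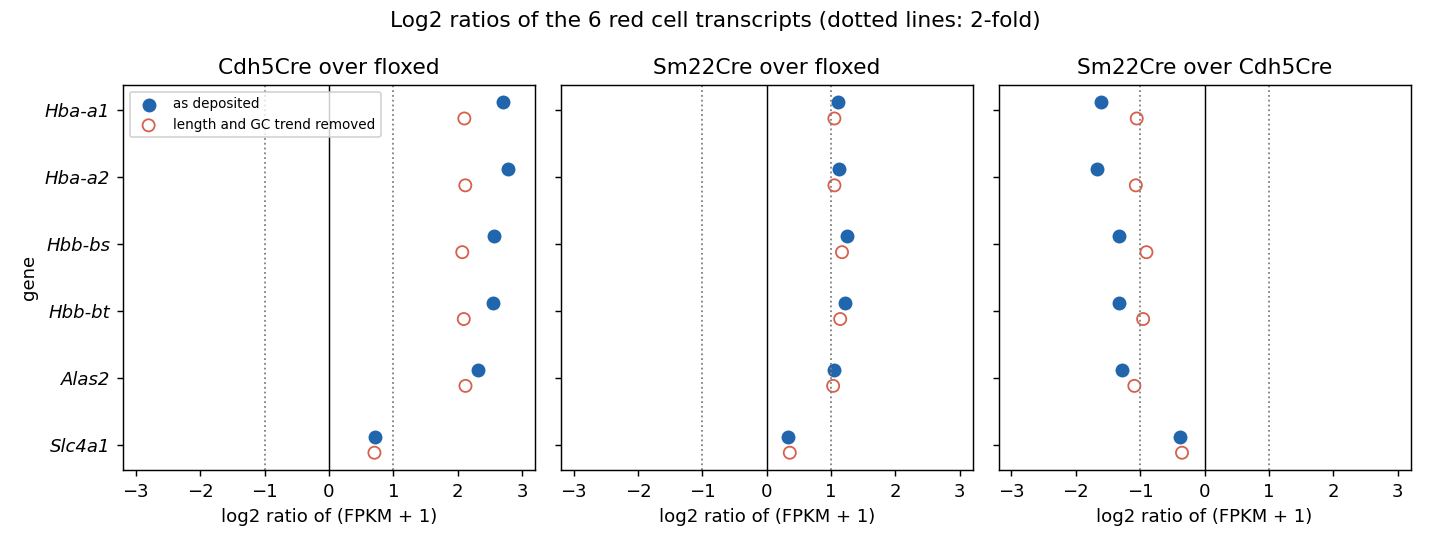
Log2 ratios of FPKM + 1 for the 6 genes in the 3 comparisons, as deposited (filled blue) and with a linear trend on transcript length and GC content removed (open red); dotted lines mark 2-fold. Removal of the trend narrows the spread of the 5 abundant genes in Cdh5Cre over floxed to between 2.07 and 2.12 and leaves Slc4a1 at 0.71.

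Within each group the 4 globin genes stood in similar proportions. Slc4a1 varied more against them, but it was below 1 FPKM in every group and the number of fragments behind its values is unknown. Hba-a2 made up 44.9% of the alpha globin FPKM in Sm22Cre, 46.0% in Cdh5Cre and 44.7% in floxed. Hbb-bt made up 34.8%, 34.9% and 35.3% of the beta globin FPKM in the same order. These ratios do not depend on scaling between groups, but they do depend on how fragments of near-identical copies were divided. Alpha globin summed to 4696 FPKM and beta globin to 4305 in Sm22Cre, a ratio of 1.09. The ratio was 1.35 in Cdh5Cre, from 14570 and 10815 FPKM, and 1.18 in floxed, from 2173 and 1834. From Hba-a1 and Hbb-bs alone it was 0.92, 1.12 and 1.01 in Sm22Cre, Cdh5Cre and floxed. The trend on length and GC was not removed from these ratios. With it removed, the log2 ratios of Cdh5Cre over floxed were 2.10 and 2.12 for the alpha genes and 2.07 and 2.10 for the beta genes. Alas2 stood at 3.02 FPKM per 1000 FPKM of the 4 globins in Sm22Cre, 2.64 in Cdh5Cre and 3.16 in floxed, so it kept close to the globin level over the groups. Slc4a1 stood at 0.046, 0.033 and 0.032 on the same scale, and Alas2 was at 65.4, 79.3 and 99.6 times the level of Slc4a1. Its relative Alas1, the synthase of most other tissues, was at 29.1, 29.0 and 26.5 FPKM, and Alas2 was at 0.93, 2.31 and 0.48 times the level of Alas1.

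Most other listed genes of the red cell lineage did not reach 2-fold over floxed, as 5 of the members did. The list of late erythroid and reticulocyte genes had 23 genes, of which 22 were found in the table (Ahsp was not) and 17 passed the filter. In Cdh5Cre against floxed, 11 of the 17 were higher and 6 lower, with a median log2 ratio of 0.43. Of the 17, 4 were higher by 2-fold or more, against 1.19% of all genes. In Sm22Cre against floxed the counts were again 11 and 6 and the median was 0.08. There none reached 2-fold, against 0.302% of all genes that were higher by that much. Isg20, which encodes an exonuclease also induced by interferon, was at 6.22, 15.7 and 4.89 FPKM in Sm22Cre, Cdh5Cre and floxed. Ube2l6, which encodes a conjugating enzyme for the ubiquitin-like protein Isg15, was at 28.0, 50.8 and 20.3 FPKM. Bpgm encodes the enzyme that makes 2,3-bisphosphoglycerate, the small molecule that lowers the oxygen affinity of haemoglobin, and was at 27.0, 42.4 and 20.5 FPKM. Isg20, Ube2l6 and Bpgm had the order of the globins over the groups, and with the trend removed Bpgm was at 0.93 in Cdh5Cre over floxed, short of 2-fold. Trim58, which encodes a ubiquitin ligase of late erythroblasts, was highest in floxed, at 3.49, 3.33 and 5.17 FPKM.

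The other enzymes and carriers of haem synthesis, which every cell needs, did not follow Alas2. Of 14 such genes, all of which passed the filter, 8 were higher and 6 lower in Cdh5Cre against floxed (median 0.13), 9 higher and 5 lower in Sm22Cre against floxed (median 0.01), and none reached 2-fold. The largest differences were those of Cpox, coproporphyrinogen oxidase, at 7.20 FPKM in Sm22Cre, 5.22 in Cdh5Cre and 7.60 in floxed, and of the iron transporter gene Slc11a2, at 15.3, 12.5 and 17.1. Ppox, the next enzyme after Cpox, was at 21.9, 25.1 and 18.6 FPKM, and Alad at 10.6, 13.9 and 10.5.

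Genes of the red cell membrane and its skeleton gave a similar picture. Of 22 genes 11 passed the filter, with a median of 0.02 in Cdh5Cre against floxed and -0.10 in Sm22Cre against floxed. Rhag, of the Rhesus complex, was at most 0.03 FPKM in any group. Ank1, ankyrin 1, which striated muscle also makes, was at 5.76, 14.6 and 13.1 FPKM, and its log2 ratio in Sm22Cre over floxed was -1.06. All 11 heart muscle markers were lower there too, with a median of -1.17 and a sum of 443.1 FPKM in Sm22Cre, 1537 in Cdh5Cre and 984.5 in floxed, and their part in the Ank1 value was not tested.

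Among transcription factors of red cell precursors, Gata1 and Klf1 were low, while others of the list were not. Gata1, the master regulator of the lineage, stood at 0.14 FPKM in Sm22Cre, 0.30 in Cdh5Cre and 0.10 in floxed, and Klf1, which activates adult beta globin, at 0.08, 0.07 and 0.11. Of 12 factors 8 passed the filter and none reached 2-fold. In Cdh5Cre against floxed 6 of the 8 were higher and 2 lower (median 0.45). In Sm22Cre against floxed 5 were higher and 3 lower (median 0.05). Nfe2, shared by red cell and platelet precursors, was at 0.98, 1.75 and 0.59 FPKM, Zfpm1, a partner of Gata1, at 4.24, 6.80 and 4.85, Lmo2 at 35.9, 49.3 and 33.7 and Gata2 at 6.17, 8.40 and 5.56. Embryonic and theta globin genes were at or near 0: Hba-x, Hbb-bh1, Hbb-bh2 and Hbb-bh0 were listed at 0 in every group. Hbb-y was at 0.14 FPKM in Sm22Cre, 0.29 in Cdh5Cre and listed at 0 in floxed. Hbq1a and Hbq1b, theta globin genes, were highest in Cdh5Cre, at 0.66 and 0.88 FPKM.

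Summed markers of other blood cells had the order of the members over the groups. All 13 platelet markers were higher in Cdh5Cre against floxed, 10 of them by 2-fold or more, against 1.19% of all genes. In Sm22Cre against floxed 12 of 13 were higher, 3 of them by 2-fold or more, against 0.302% of all genes. The median log2 ratio over all genes was 0.02 in Cdh5Cre and 0.01 in Sm22Cre against floxed. The platelet markers summed to 118.7 FPKM in Sm22Cre, 388.6 in Cdh5Cre and 63.2 in floxed. All 12 neutrophil markers, 6 of which passed the filter, were higher in Cdh5Cre against floxed and 10 of 12 in Sm22Cre, with sums of 18.1, 51.9 and 9.26 FPKM. All 14 lymphoid markers, 7 of which passed the filter, were higher in Cdh5Cre against floxed and 11 of 14 in Sm22Cre. The lymphoid sums were 29.7, 47.6 and 25.1 FPKM. None of these blood cell markers was listed at 0 in all groups. Endothelial markers were higher as well, 14 of 15 in Cdh5Cre against floxed, with sums of 514.5, 728.7 and 470.5 FPKM. Smooth muscle markers, which define the tissue, summed to 7322, 7681 and 7409 FPKM and had medians of -0.06 in Cdh5Cre and -0.003 in Sm22Cre against floxed, with Acta2 listed at 0 in every group with the status HIDATA. The part of other blood cells in the members' difference was not tested, and more cells of a type and more RNA per cell cannot be told apart in whole tissue.

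**Figure D3:**
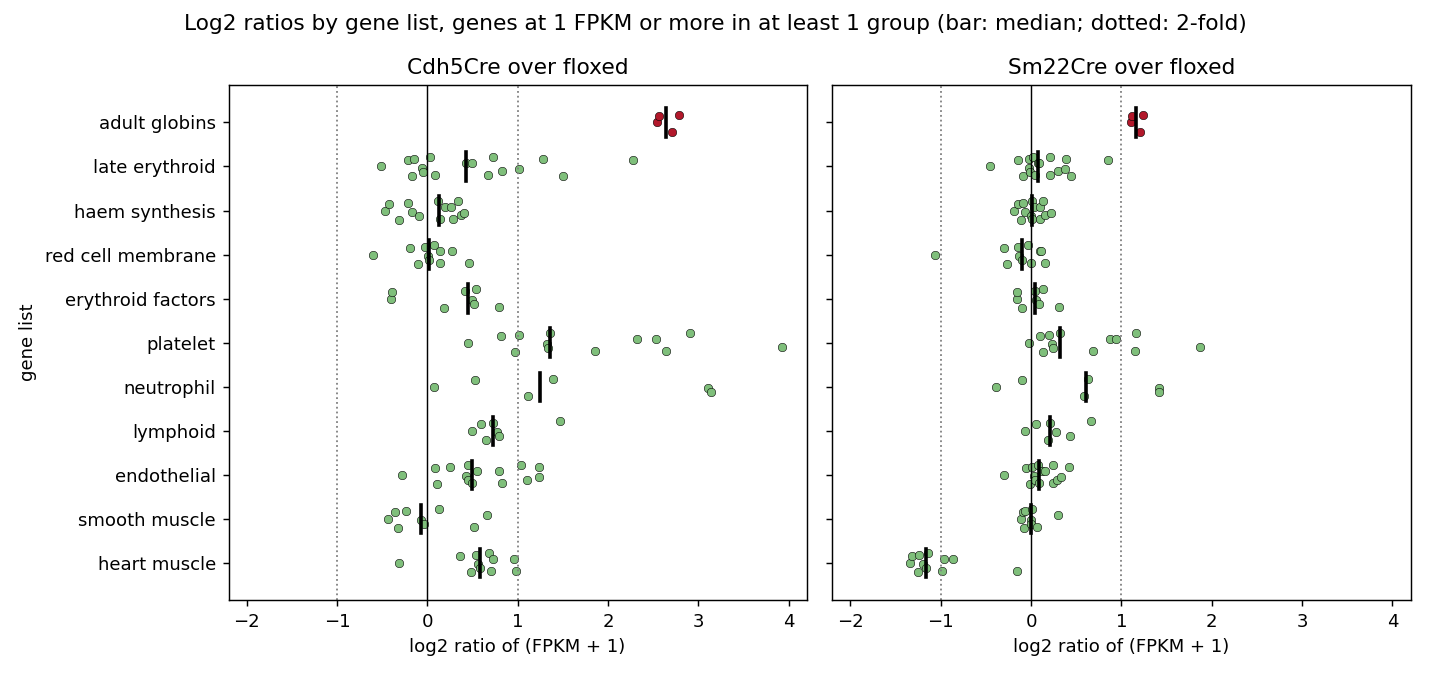
Log2 ratios of FPKM + 1 over floxed for each gene at 1 FPKM or more in at least 1 group, by gene list, in Cdh5Cre (left) and Sm22Cre (right); bars mark the list median and dotted lines 2-fold. The adult globins (red) lie at 2.54 to 2.78 in Cdh5Cre and 1.11 to 1.24 in Sm22Cre, and late erythroid, haem synthesis and membrane genes spread around lower values, with platelet and neutrophil markers reaching the globins or beyond.

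Per unit of globin, markers of platelets and neutrophils had no common order over the groups. The 13 platelet markers together stood at 13.2 FPKM per 1000 FPKM of the 4 globins in Sm22Cre, 15.3 in Cdh5Cre and 15.8 in floxed, and 6 of them were highest in Cdh5Cre, 5 in floxed and 2 in Sm22Cre. The 12 neutrophil markers together stood at 2.02, 2.04 and 2.31, with 2 highest in Cdh5Cre, 6 in floxed and 4 in Sm22Cre. Ppbp, a platelet chemokine gene, stood at 4.01 FPKM per 1000 FPKM of the 4 globins in Sm22Cre, 6.04 in Cdh5Cre and 2.28 in floxed. Gp9, part of the platelet receptor for von Willebrand factor, was at 0.36, 0.47 and 0.31 on the same scale. S100a8, a calcium-binding protein gene of neutrophils, was at 0.53, 0.71 and 0.29, and all of these were highest in Cdh5Cre. Pf4, platelet factor 4, was at 3.44, 2.19 and 6.72 and Itga2b, a platelet integrin gene, at 0.95, 0.81 and 1.24, both lowest in Cdh5Cre. Csf3r, the receptor for granulocyte colony-stimulating factor, was at 0.18, 0.11 and 0.18. Isg20 was at 0.69, 0.62 and 1.22 and Bpgm at 3.00, 1.67 and 5.12, so both were lowest relative to globin in Cdh5Cre, where globin was highest.

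**Figure D4:**
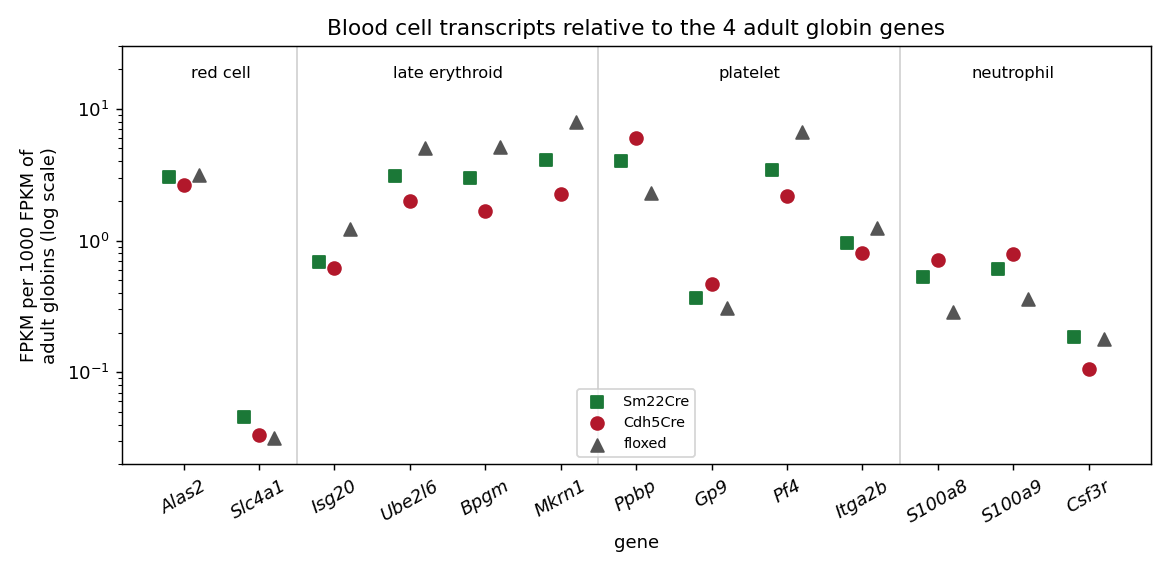
FPKM of 13 blood cell transcripts per 1000 FPKM of the 4 adult globin genes, log scale, 1 point per group (green squares Sm22Cre, red circles Cdh5Cre, grey triangles floxed). Alas2 (2.64 to 3.16) differs little between groups, Ppbp, Gp9, S100a8 and S100a9 are highest in Cdh5Cre while Pf4, Itga2b and Csf3r are lowest there, and Isg20, Ube2l6, Bpgm and Mkrn1 are highest in floxed.

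The genes whose pattern was most like the members were found by the distance between their pair of log2 ratios over floxed (Cdh5Cre and Sm22Cre) and the members' median pair of 2.57 and 1.12, which rests on 3 group values. Among the nearest 10 were Clec1b (distance 0.09), Gp9 (0.19), Tubb1 (0.24), Ctla2a (0.34), Nrgn (0.42), S100a9 (0.62), S100a8 (0.65), Apol11b (0.74) and Snora68 (0.79). Clec1b, Gp9, Tubb1 and Nrgn belong to the platelet list and S100a8 and S100a9 to the neutrophil list. Ctla2a was at 24.1 FPKM in Sm22Cre, 86.5 in Cdh5Cre and 10.6 in floxed, and Apol11b at 1.69, 3.74 and 0.33. Clec1b, at 4.10, 13.2 and 1.28 FPKM, shared its listed locus with other genes.

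Partners of alpha globin in the artery wall were measured as well. Nos3, the endothelial nitric oxide synthase, stood at 14.7 FPKM in Sm22Cre, 20.1 in Cdh5Cre and 12.3 in floxed. Cyb5r3, the reductase of haem iron in alpha globin, was at 311.7, 293.1 and 328.5 FPKM and thus lowest where globin was highest. Gja4, a connexin gene of arterial endothelium, was at 15.6, 29.8 and 13.4 FPKM and Gja5, another, at 17.2, 21.9 and 14.6. Of these 9 genes Gja4 in Cdh5Cre against floxed reached 2-fold (log2 ratio 1.10, or 0.72 with the length and GC trend removed), and the median was 0.02.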

How the data were processed

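RNA-seq of 9 mouse aortas, 3 per group, was used. Per the labels' protocols, poly-A RNA was made into stranded libraries and read as pairs of 75 bases. The build was mm9 per the submitters' processing notes, which list Cufflinks 1.3.0, SAMtools 0.1.7, Bowtie2 2.1.0 and TopHat2 2.0.8 without roles. According to its header, the deposited table is a pairwise gene table, and per the file headers its FPKM values are the authors' estimates, 1 per group and pair of groups, so depth is unknown and no count, SD, test or interval was computed.

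Symbols came from GENCODE M21 (32638 of 37668 genes) and served to find 181 of 184 list genes (Fam46c as Tent5c). Listed ends minus starts equalled annotated lengths in 13791 genes (336 for that difference plus 1), so 1 was added to starts. Group values came from the pairs that include Sm22Cre. Log2 ratios used FPKM + 1, a filter of 1 FPKM in at least 1 group and, as a fixed rule of size in place of a test, 2-fold. The status HIDATA removed 7 genes. Of each list, the 4 genes with the largest ratios past the filter were eligible to be named, with genes listed at 0; Gata1, Klf1, Rhag, Hbb-y, Hbq1a, Hbq1b, Trim58, Mkrn1, Cyb5r3, Ngb, Pf4, Itga2b and Alas1 were added after their values were seen, and some genes are not reported here. The members and lists were chosen with earlier results of these data known. Other pseudocounts, filters, scalings, statuses and pairs were tried. Ratio and trend code was tested on simulated data. Python 3.11.15, pandas 2.3.3, numpy 2.4.6 and matplotlib 3.10.9 were used.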

Additional observations from a re-analysis of the deposited data

How the results depend on the processing

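The 12 results on the members were recomputed under 75 alternatives. No median log2 ratio turned its direction, and 69 of the alternatives stayed within 1.5 times. The alpha to beta globin ratio in Sm22Cre did cross 1, from 1.09 to 0.92 with Hba-a1 and Hbb-bs alone. Part of the 75 alternatives could hardly change a result: the other pairs hold the same member values, and a filter of 5 FPKM leaves the same 5 members. Smaller pseudocounts also act little on genes this abundant. With no replicates, a move past 1.5 times was counted as a change. Under quantile normalization the median log2 ratio in Cdh5Cre over floxed was 1.95 and 1 member was lower by 2-fold or more in Sm22Cre over Cdh5Cre, against 3 with the length and GC trend removed. With status OK alone 1 member, Hbb-bt, was left past the filter and it reached 2-fold in all 3 comparisons (1 member each). Scaling each group to its sum outside the globins put the median of all genes in Cdh5Cre over floxed at -0.19 (0.02 as deposited), and the members' median was then 2.32. No value differed between pairs for any member. No paired analysis was possible because the table holds 1 value per group and the groups share no replicate numbers, and no replicate could be left out for the same reason.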

Other observations

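Globins of other tissues did not have the order of the red cell genes. Mb, the myoglobin gene of heart and skeletal muscle, stood at 52.1 FPKM in Sm22Cre, 190.7 in Cdh5Cre and 116.3 in floxed, and Cygb, the cytoglobin gene of fibroblasts and vascular wall cells, at 102.1, 185.9 and 119.2. Both were lowest in Sm22Cre, as were 10 of the 11 heart muscle markers. Ngb was below 1 FPKM in every group.

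Genes that clear haemoglobin and haem or store iron had medians near 0 against floxed. Of 14 such genes 12 passed the filter, with medians of 0.08 in Cdh5Cre over floxed and -0.01 in Sm22Cre over floxed. Hp, which encodes the haemoglobin-binding protein haptoglobin, was at 31.9 FPKM in Sm22Cre, 51.0 in Cdh5Cre and 34.7 in floxed. Cd163, its receptor on macrophages, was at 8.45, 4.68 and 6.96. Hmox1, haem oxygenase 1, was at 8.36, 8.98 and 8.33. The ferritin light chain gene Ftl1 was at 390.0, 758.5 and 391.2 FPKM, and Hamp, the gene for the iron hormone hepcidin, which heart muscle also makes, at 2.44, 11.8 and 6.05, with a log2 ratio of -1.89 in Sm22Cre over Cdh5Cre. Hmox1 was named after its values were seen.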
